A study of Mus musculus with 35 samples.

Results

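Control kidneys of a single mouse cross were sequenced in 2 sets, and the libraries compared here are those controls alone: 8 libraries of the 35 in the series, chosen by their labels and by the count table that holds them. The in vivo table holds 3 of them (in vivo controls 1, 2 and 3) and the CDM table holds 5 (CDM controls 4 to 8); CDM is that table's own label, and the sources used here do not spell it out. All 8 came from kidneys of C57BL/6 mice at postnatal day 2 and are labelled as controls of the Flcn/Tfe3 cross. The labels do not say which Flcn, Tfe3 or cre alleles a control carried, and whether 2 kidneys shared a litter is not given either. The mutants of that cross, Flcn/Tfe3 double knockouts (DKO; by the study's methods Flcn flox/flox, Ksp-cre+, Tfe3-/-), were also split over the tables (6 in vivo and 4 CDM) and serve as comparison. In them, cre is driven by the promoter of Cdh16, a cadherin of the renal tubule epithelium, so that Flcn is lost in tubule cells while Tfe3 is absent from the whole animal.

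The kidney at this age is still forming nephrons: progenitor cells marked by Six2 and Cited1 persist under the capsule, while tubules, vessels and stroma mature beneath them. Flcn encodes folliculin, a tumor suppressor that keeps the transcription factors Tfeb and Tfe3, regulators of lysosomal genes, in the cytoplasm. Each library was made by 3′ mRNA sequencing, in which an oligo(dT) primer copies the end of a polyadenylated transcript, so a gene's count scales with its molecules rather than its length. Levels are given as CPM, counts scaled to a common library size, on library totals scaled by the trimmed mean of M-values (TMM). Differences are log2 fold changes, CDM minus in vivo, with their standard errors. The test was edgeR's quasi-likelihood F test, with an adjusted p below 0.05 as the threshold for calling a gene. The labels call the libraries biological replicates but name no animals, litters or days; p-values measure only the spread between these libraries, and table, date, litter and handling cannot be told apart.

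None of the 4 genes that mark the genotype was called between the 2 sets of controls. Flcn was at 10.9, 14.8 and 8.16 CPM in in vivo controls 1, 2 and 3, and at 11.7, 9.24, 10.5, 13.5 and 11.8 CPM in CDM controls 4 to 8, with a log2 difference of 0.01 ± 0.27 (SE; adjusted p = 0.994). Tfe3 was at 23.2, 15.3 and 25.3 CPM against 17.4, 19.2, 18.1, 19.3 and 18.02 CPM (log2 difference -0.22 ± 0.22; adjusted p = 0.586). In the controls of the Flcn and the Flcn/Tfeb crosses Tfe3 lay at 27.8 to 44.1 CPM, above all 8 libraries described here, and in the DKO kidneys at 12.6 to 24.5 CPM. That contrast lies across tables and was not tested, and whether a 3′ tag of Tfe3 falls in the deleted part of the null allele is not given in the sources used here. Tfeb was at 16.9, 13.3 and 25.3 CPM in vivo and 11.3, 4.26, 10.8, 11.2 and 3.52 CPM in the CDM controls, without overlap, although the log2 difference of -1.14 ± 0.36 did not pass the test (adjusted p = 0.0688). Cdh16 was at 245 ± 21.2 CPM (SD, n = 3) in vivo and 256 ± 17.5 CPM (n = 5) in the CDM controls (log2 difference 0.05 ± 0.15; adjusted p = 0.856). The direction of the small difference of Flcn turned under some alternative settings and without some single libraries. That of Cdh16 turned on library totals alone and without the 3 controls with adrenal transcripts described below.

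The sets also differed in make-up. Transcripts of the Y-linked genes Ddx3y, Eif2s3y, Kdm5d and Uty were found in in vivo controls 1 and 3 and in CDM control 8, and had no count in the other 5 libraries. Xist, the RNA that coats the inactive X chromosome of females, was at 171 CPM in in vivo control 2 and at 821, 1467, 173 and 476 CPM in CDM controls 4 to 7. The in vivo set thus held 1 female and 2 males by these genes, and the CDM set 4 females and 1 male. In vivo control 1 carried Xist at 9.41 CPM beside Ddx3y at 105 CPM. None of the Y-linked genes nor Xist passed the test between the tables; their log2 differences were -1.99 ± 1.22 for Ddx3y, -2.02 ± 1.13 for Eif2s3y, -1.11 ± 1.17 for Kdm5d, -1.19 ± 1.17 for Uty and 3.28 ± 1.37 for Xist. Of the X-linked genes that pair with them, Eif2s3x, a translation initiation factor subunit, was called higher in the CDM controls (0.87 ± 0.23; adjusted p = 0.0393). Kdm6a (0.34 ± 0.24), Kdm5c (0.21 ± 0.22) and Ddx3x (-0.24 ± 0.21) were not called, and Tsix had at most 1.42 CPM in any library.

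Genes of organs next to the kidney marked a few libraries irrespective of table. Cyp21a1, the steroid 21-hydroxylase of the adrenal cortex, was at 80.3 and 64.6 CPM in in vivo controls 1 and 2 and at 57.1 CPM in CDM control 6, and had no count in the other 5. Star, which carries cholesterol into the mitochondrion, was at 21.7, 18.4 and 36.5 CPM in the same 3 libraries and at 1.57 CPM or below elsewhere. Th and Dbh, enzymes of catecholamine synthesis in the adrenal medulla, reached 16.2, 17.7 and 6.51 CPM and 19.5, 10.9 and 6.87 CPM in those libraries, and stayed at 1.42 CPM or below in the others. Over the whole adrenal cortex list of 12 genes, the summed level was 397.6, 354.3 and 80.8 CPM in vivo and 114.1, 93.1, 324, 107.2 and 105.8 CPM in the CDM controls. None of the 8 adrenal cortex genes tested was called (median log2 difference -1.22), while 3004 of all genes had an unadjusted p below 0.05; Akr1b7 (-0.72 ± 0.27; adjusted p = 0.117) and Cyp11a1 (-2.25 ± 1.05; adjusted p = 0.205) had the smallest p. Without CDM control 6, Akr1b7 was called lower and Cyp11a1 was no longer among the genes tested.

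**Figure D1:**
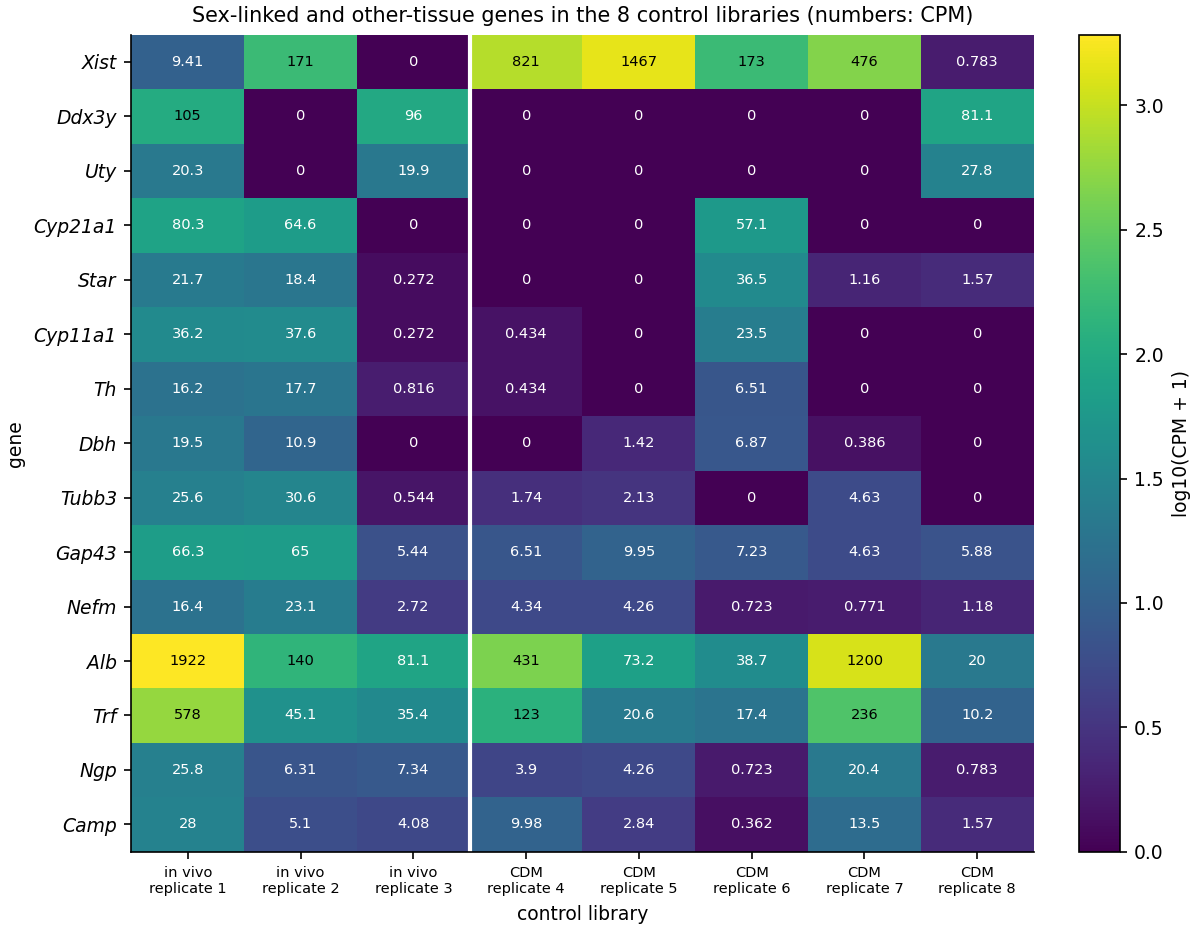
CPM of sex-linked genes and of genes of other tissues (rows) in the 8 control libraries (columns; the white line parts the in vivo from the CDM controls); color is log10(CPM + 1) and the numbers are CPM. Cyp21a1 reads 80.3, 64.6 and 57.1 in 3 libraries and 0 in the other 5, while Gap43 is above 65 only in in vivo controls 1 and 2.

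Of the 14 genes of neurons and glia 7 were tested and 4 were called, all lower in the CDM controls, against 3.28% of all genes called lower; 2 in vivo libraries held the high levels. Gap43, a growth cone protein, was at 66.3 and 65.0 CPM in in vivo controls 1 and 2, 5.44 CPM in in vivo control 3, and 6.51, 9.95, 7.23, 4.63 and 5.88 CPM in CDM controls 4 to 8 (log2 difference -2.78 ± 0.53; adjusted p = 0.0119). The level of in vivo control 3 lay within the CDM range. Tubb3, neuronal tubulin, followed the same libraries with 25.6 and 30.6 CPM against 4.63 CPM or below in the other 6 (-3.50 ± 0.88; adjusted p = 0.0331), as did Nefm, a neurofilament subunit (-2.76 ± 0.64; adjusted p = 0.0242). Uchl1, a neuronal ubiquitin hydrolase, did not overlap, with 93.1, 113 and 67.7 CPM in vivo and 36.0, 54.0, 36.5, 23.1 and 47.8 CPM in the CDM controls (-1.23 ± 0.23; adjusted p = 0.0115). The number called lower was 0 without in vivo control 1, 1 without in vivo control 2, 8 without in vivo control 3, and 0 with sex as a factor. In vivo controls 1 and 2 also carried the adrenal transcripts. Without the 3 controls with adrenal transcripts, which leaves 1 in vivo library, the list's median moved from -1.82 to 0.26. Npy, a peptide of adrenal medulla and nerve, was lower too (-1.45 ± 0.37; adjusted p = 0.0343), at 66.3, 62.1 and 30.5 CPM against 16.1, 19.2, 41.2, 11.2 and 9.79 CPM; CDM control 6 lay within the in vivo range.

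Liver and neutrophil transcripts varied widely between libraries of both tables. Alb, serum albumin, was at 1922, 140.5 and 81.1 CPM in vivo and at 431, 73.2, 38.7, 1200 and 19.98 CPM in the CDM controls. No gene of the 14 tested hepatocyte genes was called (median -0.75), beside 6.45% of all genes called in either direction. Trf (-1.42 ± 0.88) and Serpina1a (-0.93 ± 0.60) were closest. The same held for the 5 tested neutrophil genes (median -0.70), where Ngp (-1.11 ± 0.73) and Camp (-1.12 ± 0.74) were highest in in vivo control 1 and CDM control 7. Without the 3 controls with adrenal transcripts, which leaves 1 in vivo library, the hepatocyte median became 1.76 and the neutrophil median 0.80. Lymphocyte genes (Igkc, -1.18 ± 0.50; Cd79b, -0.29 ± 0.42), red blood cell genes (Slc25a37, -0.63 ± 0.26; Slc4a1, -0.83 ± 0.41), skeletal muscle genes (Tnnt3, -1.07 ± 0.51; Pygm, -0.37 ± 0.29), the pancreas gene Cela1 (-0.32 ± 0.23) and urothelial genes (Upk1b, 0.40 ± 0.33; Upk1a, 0.21 ± 0.29) were not called either.

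The composition of the libraries differed beyond the spread in 5 of 10 measures taken per library (exact two-sided permutation test over 56 regroupings, adjusted over the 10 measures). The shares of Gm42418, of all Gm models and of the 10 most counted genes are 3 of the 5 and largely hold the same counts, since Gm42418 is the main part of the Gm share. Counted reads totalled 3873439, 3861965 and 3538665 in the in vivo controls, and 2598380, 1719367, 2738325, 2737576 and 2909353 in the CDM controls (adjusted p = 0.0357, exact permutation test; the smallest unadjusted p the design allows is 0.0179). Gm42418, a gene model that overlaps the 45S ribosomal RNA repeat, took 5.82, 7.79 and 8.69% of the counts in vivo and 14.4, 14.3, 13.1, 13.7 and 15.5% in the CDM controls (adjusted p = 0.0357, exact permutation test). In edgeR its log2 difference was 1.16 ± 0.29 (adjusted p = 0.0347). Across the controls of the other crosses it took 3.48 to 8.03%, so the CDM controls held the highest shares among control libraries. The 10 most counted genes together took 12.5 ± 1.25% (SD, n = 3) in vivo and 21.5 ± 2.83% (n = 5) in the CDM controls, and the mean GC content of transcripts, weighted by counts, was 49.6 ± 0.09% and 49.1 ± 0.12%, with no overlap for either (both adjusted p = 0.0357, exact permutation test). Haemoglobin genes took 0.497 ± 0.123% and 0.371 ± 0.161% and did not pass the test (adjusted p = 0.339, exact permutation test).

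CDM control 6 stood apart from the other CDM controls in composition. Mitochondrially encoded genes took 3.01% of its counts against 4.08 to 7.80% in the other 4, near the 2.99% of in vivo control 1. Ribosomal protein genes took 7.10% of its counts, below the 8.19 to 9.67% of the in vivo controls, while CDM controls 4, 5, 7 and 8 held 13.1, 14.9, 10.6 and 12.3%. Reads that fell in no gene were 8.78% of its reads and 12.1 to 18.4% of those of the other 4 CDM controls (no such tally was read for the in vivo table). It is also the CDM library with adrenal transcripts, and the part of these differences in the results below was not tested beyond leaving it out.

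**Figure D2:**
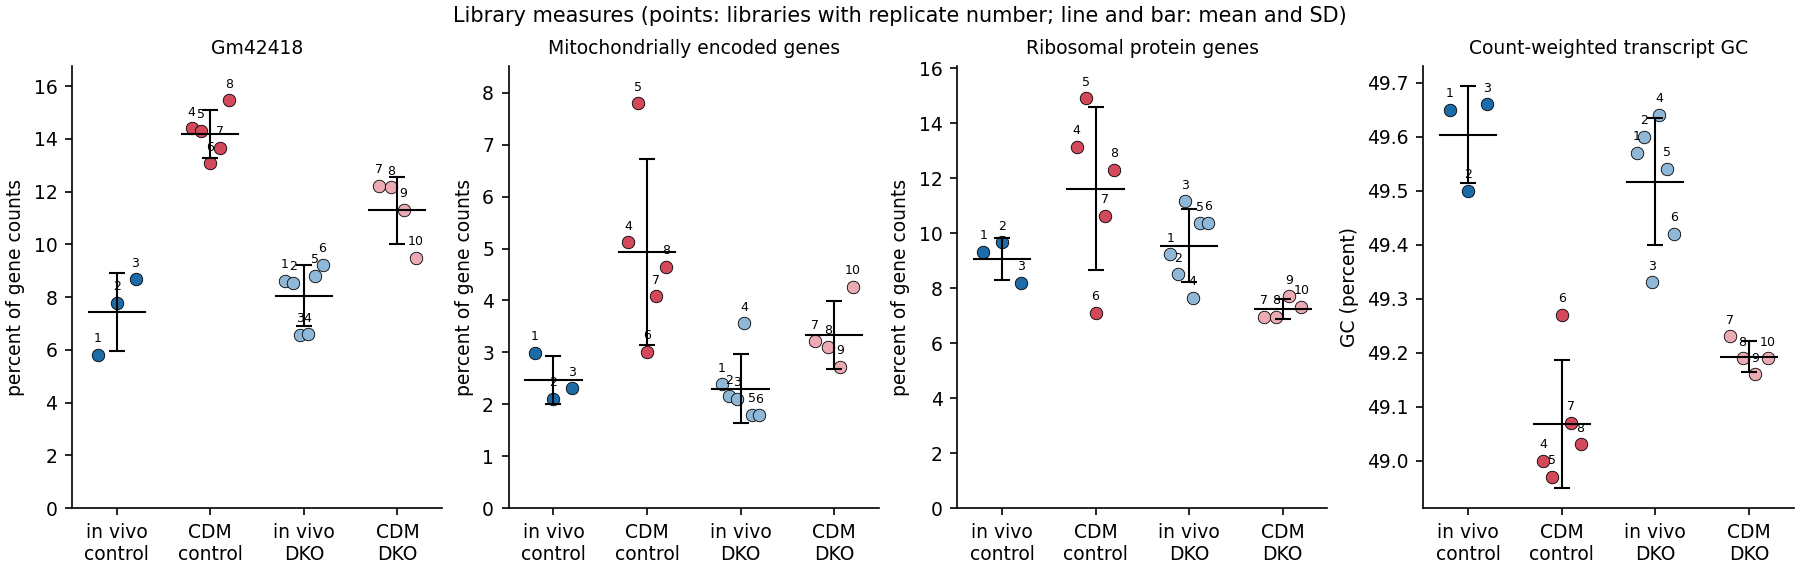
Share of gene counts in Gm42418, in mitochondrially encoded genes and in ribosomal protein genes (percent), and count-weighted GC of transcripts (percent), for each library; the number beside a point is its replicate, lines are group means and bars are SD. Gm42418 separates the CDM controls (13.1 to 15.5%) from the in vivo controls (5.82 to 8.69%), while CDM control 6 lies low for mitochondrial and ribosomal protein genes; the GC axis does not start at 0.

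Of 12426 genes tested, 802 (6.45%) were called between the 2 sets of control kidneys: 394 (3.17%) were higher and 408 (3.28%) lower in the CDM controls. Among them, 263 differed more than 2-fold, 34 more than 4-fold, and the groups did not overlap for 691. Over all tested genes, 7.19% had every CDM control above every in vivo control and 8.02% had them below. How many genes were called rested heavily on single libraries: it was 54 without in vivo control 1, 84 without in vivo control 3, 280 without in vivo control 2, and 1949 without CDM control 6. With sex as a factor 11 genes were called and with Xist as a covariate 19, while all 802 kept their direction in both fits with median sizes of 0.83 and 0.80, against 0.84 as reported. With library totals alone as the scale the median of all genes moved to -0.21 and the split became 157 higher and 891 lower.

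In every one of the 20 alternative fits run, 10 genes were called as they were in the fit reported, and they were named after their values were seen. They are the histone genes Hist1h1a, Hist1h1b, Hist1h2ab and Hist2h2ac, the mitochondrial gene mt-Nd6, and Cdkn1b, Morf4l1, Spint2, Tma7 and Zc3hc1. Of these, Hist1h1a, Hist1h2ab and mt-Nd6 passed the filter on low counts through the CDM controls. Cdkn1b, the cell cycle inhibitor p27, was at 119.7, 121 and 94.7 CPM in vivo and 238, 303, 249.8, 211 and 321 CPM in the CDM controls (1.23 ± 0.18; adjusted p = 0.00671). Morf4l1, a chromatin protein of histone acetyltransferase complexes, was at 90.7, 105 and 101 CPM against 289, 216, 202, 247 and 310.2 CPM (1.34 ± 0.18; adjusted p = 0.00464). Spint2, a Kunitz-type inhibitor of serine proteases at epithelial surfaces, was at 40.5, 42.7 and 44.6 CPM against 125, 72.5, 91.8, 113 and 128 CPM (1.31 ± 0.19; adjusted p = 0.00671). Cdkn1b, Morf4l1 and Spint2 were higher in each CDM control than in any in vivo control, CDM control 6 included. Zc3hc1, a nuclear pore basket protein, was the only one of the 10 that was lower, at 81.8, 75.2 and 87.9 CPM against 36.4, 35.5, 45.2, 38.2 and 29.4 CPM (-1.15 ± 0.16; adjusted p = 0.00538).

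Histone genes held several of the largest differences. Replication-dependent histone mRNAs are made in S phase and end in a conserved stem-loop rather than a poly(A) tail. Hist2h2ac, an H2A gene, was at 5.07, 5.10 and 6.26 CPM in vivo and at 22.99, 58.3, 25.7, 61.7 and 51.7 CPM in the CDM controls (2.99 ± 0.36; adjusted p = 0.00173). Hist1h1a, a linker histone gene, was at 3.14, 2.91 and 2.18 CPM against 22.1, 22.03, 13.7, 21.6 and 18.8 CPM. With 13, 12 and 8 counts in vivo, it passed the filter on low counts through the CDM controls, so no size is given for it. Hist1h2ab, another H2A gene, was at 2.90, 2.91 and 5.71 CPM against 20.4, 25.6, 33.3, 30.5 and 19.98 CPM. It too passed the filter on low counts through the CDM controls, so no size is given for it. The lowest CDM control lay above the highest in vivo control for all 3, with CDM control 6 included. The linker histone gene Hist1h1b was at 24.4, 38.8 and 25.8 CPM against 77.6, 81.0, 73.8, 70.9 and 68.5 CPM (1.31 ± 0.18; adjusted p = 0.00538). Calls were made for 8 of the 32 histone genes tested, each in the higher direction, beside 3.17% of all genes called higher. Of these, Hist1h1a, Hist1h2ab and Hist1h2ad entered the test through their CDM counts. That count ranged from 5 to 10 over the fits that leave out 1 library and was 4 with sex as a factor. The median over the 32 genes was 0.22, and near 0 on library totals alone.

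The stem-loop of the called histone genes was read from the transcripts to show which of them hold its letters. The histone 3′ stem-loop pattern of 16 bases was searched on the transcript strand of every tested gene and was found in 17 genes (0.137% of those tested), all of them histone genes. It was present in 5 of the 8 called genes; the sites below come from the GENCODE M21 transcripts on GRCm38 (mm10), 5′ to 3′, with the motif in capitals.
Hist1h2ab, chr13:23751567-23751592, plus strand: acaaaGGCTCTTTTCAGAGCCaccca
Hist2h2ac, chr3:96220413-96220438, minus strand: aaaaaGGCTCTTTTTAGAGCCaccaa
Hist1h1e, chr13:23621777-23621802, minus strand: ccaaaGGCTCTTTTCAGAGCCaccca
Hist1h4d, chr13:23581945-23581970, plus strand: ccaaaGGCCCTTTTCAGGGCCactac
Hist1h2ad, chr13:23574890-23574915, plus strand: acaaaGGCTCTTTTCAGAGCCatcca
The 17 tested histone genes with the motif had a median log2 difference of 0.18 with 5 called, Hist1h2ab and Hist1h2ad among them. The 15 without it had a median of 0.22 with 3 called, Hist1h1a among them. In the annotated transcripts of Hist1h1e and Hist1h4d, 1153 and 770 bases follow the stem-loop, whereas 11 follow it in Hist1h2ab and 57 in Hist2h2ac. Hist1h1e was higher at 1.27 ± 0.20 (adjusted p = 0.00816) and Hist1h4d at 1.69 ± 0.28 (adjusted p = 0.00889). Hist1h2ad, also among the 8 called, had 2 counts in each in vivo control and 10, 7, 6, 2 and 13 counts in CDM controls 4 to 8; it was kept for the test by its CDM counts, and no size is given for it. The other called genes were Hist1h1a, Hist1h1b and Hist1h2an (2.04 ± 0.35; adjusted p = 0.0101).

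Genes called higher and lower differed in base composition. Genes higher in the CDM controls had a median transcript GC of 44.6% and those lower 54.7%, against 49.6% over all tested genes, with median lengths of 4130, 2324 and 3440 bases. In the lowest of 5 equal bins of GC (31.0 to 43.8%), 171 genes were called higher and 13 lower, and in the highest bin (55.4 to 72.8%) 23 were called higher and 178 lower. The median log2 difference fell bin by bin, from 0.22 through 0.10, 0.02 and -0.13 to -0.25. By length, 137 genes were called higher and 14 lower among the longest transcripts, whereas the shortest bin held calls in both directions, 101 higher and 151 lower. Short transcripts parted by GC: below the median length, the lower-GC genes had 116 higher and 37 lower calls and the higher-GC genes 47 and 272. After a smooth trend on GC and length was taken out of each library, 209 genes were called higher and 200 lower, and 318 of these 409 were among the 802.

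**Figure D3:**
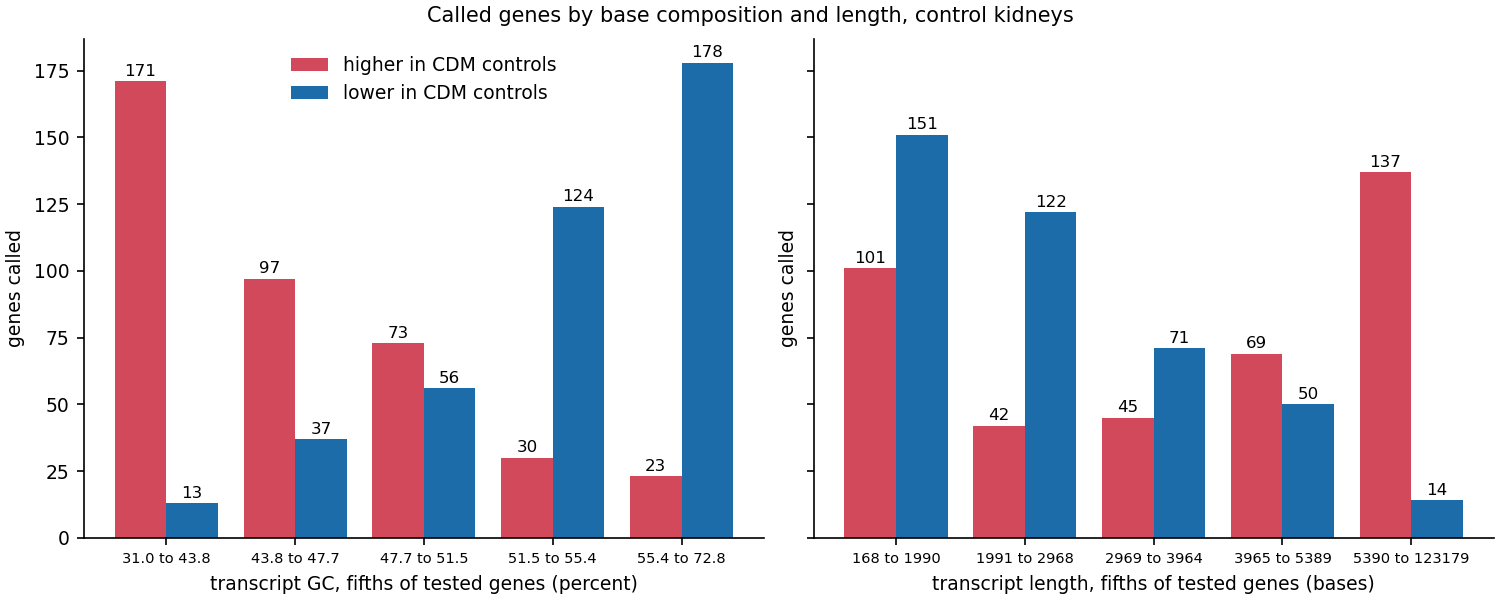
Number of genes called in the control kidneys (vertical axis) in 5 equal bins of transcript GC (left, percent) and of transcript length (right, bases); red bars are genes higher and blue bars genes lower in the CDM controls. The GC bins run from 171 higher and 13 lower to 23 higher and 178 lower.

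Coding stretches of 90 bases show the contrast in 4 called genes. They were picked as illustrations, for their direction too: nuclear genes with the smallest p among those called higher in the lowest GC bin and those called lower in the highest, whose groups do not overlap and whose longest coding exon begins with a stretch of at most 43.8% or at least 55.4% GC. Genes called in the opposite direction also occur in both bins; letters are from GENCODE M21 (GRCm38), 5′ to 3′, with G and C in capitals.
Tcea1, higher, chr1:4891915-4892004, plus strand: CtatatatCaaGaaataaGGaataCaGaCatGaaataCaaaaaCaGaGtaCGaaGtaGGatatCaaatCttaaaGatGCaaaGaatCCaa
Fam208b, higher, chr13:3577111-3577200, minus strand: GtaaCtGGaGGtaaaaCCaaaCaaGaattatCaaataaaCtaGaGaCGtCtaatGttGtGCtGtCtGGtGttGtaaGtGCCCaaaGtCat
Pcbp4, lower, chr9:106463131-106463220, plus strand: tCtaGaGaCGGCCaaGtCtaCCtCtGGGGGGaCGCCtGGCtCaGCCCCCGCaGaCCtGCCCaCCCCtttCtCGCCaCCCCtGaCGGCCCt
Scand1, lower, chr2:156312259-156312348, minus strand: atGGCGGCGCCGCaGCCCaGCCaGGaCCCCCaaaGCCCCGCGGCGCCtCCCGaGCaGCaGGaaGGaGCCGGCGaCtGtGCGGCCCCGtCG
The 4 stretches hold 28.9, 37.8, 68.9 and 77.8% G and C. Tcea1, a transcription elongation factor, was at 39.3, 42.2 and 32.9 CPM in vivo and at 84.6, 63.2, 65.4, 80.6 and 80.3 CPM in the CDM controls (0.96 ± 0.17; adjusted p = 0.0103). Fam208b was at 9.17, 9.46 and 9.79 CPM against 24.7, 20.6, 19.5, 21.98 and 23.5 CPM (1.21 ± 0.23; adjusted p = 0.0115). In the other direction, Pcbp4, an RNA-binding protein, was at 135, 123 and 177 CPM in vivo against 35.6, 46.2, 73.4, 65.5 and 38.0 CPM (-1.49 ± 0.22; adjusted p = 0.00671). Scand1, a SCAN domain protein, was at 128, 134 and 146 CPM against 59.9, 58.97, 84.6, 70.6 and 70.9 CPM (-0.98 ± 0.15; adjusted p = 0.00769). The 2 sets of libraries did not overlap for any of the 4.

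Of 11 mitochondrially encoded genes tested, 6 were called higher in the CDM controls and none lower (median 1.38), beside 3.17% of all genes called higher. They encode core subunits of the respiratory chain and are read from the circular mitochondrial DNA rather than the nucleus. mt-Nd6, the 1 protein gene on the light strand, was at 2.65, 2.67 and 4.35 CPM in vivo and at 30.8, 36.95, 14.5, 25.1 and 32.1 CPM in the CDM controls. It is among the 6 called, but passed the filter on low counts through the CDM controls, so no size is given for it. mt-Nd5 was at 607, 528 and 628 CPM against 2767, 4473, 1370, 1905 and 2188 CPM (2.11 ± 0.33; adjusted p = 0.00774). mt-Co1, a cytochrome oxidase subunit, differed by 1.70 ± 0.32 (adjusted p = 0.0115) and mt-Cytb by 1.59 ± 0.36 (adjusted p = 0.0216). CDM control 6 was the lowest CDM library for all 4. The median was 0.87 after the GC and length correction. The count ranged from 2 to 9 over the fits without 1 library, and was 1 with sex as a factor and 1 with Xist as a covariate. As a share of all counts, mitochondrially encoded genes took 2.47 ± 0.463% (SD, n = 3) in vivo and 4.93 ± 1.79% (n = 5) in the CDM controls, a difference that did not pass the test (adjusted p = 0.067, exact permutation test).

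Of 81 ribosomal protein genes tested, 17 were called higher in the CDM controls and none lower (median 0.62), beside 3.17% of all genes called higher. Rpl35, of the large subunit, was at 396, 509 and 373 CPM in vivo and at 3239, 3394, 758, 1728 and 2155 CPM in the CDM controls (2.40 ± 0.40; adjusted p = 0.00941). Rps6, of the small subunit, was at 31.8, 34.7 and 24.5 CPM against 252, 163, 61.5, 105 and 167 CPM (2.29 ± 0.36; adjusted p = 0.00774). Rpl34 (2.18 ± 0.40) and Rpl24 (1.45 ± 0.28) did not overlap either. Every CDM control lay above the in vivo controls for 9 of the 81 and below them for 2, beside 7.19% and 8.02% of all genes. Without CDM control 6 the number called higher was 53, without in vivo control 1 or 3 it was 2, with Xist as a covariate 1 and with sex as a factor 0. The share of counts in ribosomal protein genes did not pass the test (adjusted p = 0.238, exact permutation test). Many of these genes have processed pseudogenes, which makes their counts uncertain; how reads were split between copies was not tested.

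Nuclear genes of the respiratory chain went in both directions. Of 80 tested, 5 were called higher and 3 lower (median 0.30), beside 3.17% and 3.28% of all genes. The number called higher was 28 without CDM control 6, and 0 without in vivo control 1, without in vivo control 3 or with sex as a factor. Ndufa4 was at 77.9, 139.5 and 86.8 CPM in vivo against 593, 507, 145, 378 and 448 CPM (2.03 ± 0.36; adjusted p = 0.0106), and Atp5j (1.65 ± 0.36) and Atp5e (1.43 ± 0.36) were higher as well. Sdhb, the iron-sulfur subunit of complex II, was lower, at 411, 463 and 520.1 CPM against 272, 289, 298, 289.6 and 332 CPM (-0.66 ± 0.15; adjusted p = 0.0253).

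Nuclear noncoding RNAs were among the abundant genes that differed. Malat1, a nuclear speckle RNA, was at 1489, 797 and 1055 CPM in vivo and at 5248, 8625, 2081, 4245 and 5033 CPM in the CDM controls (2.18 ± 0.38; adjusted p = 0.0103). Kcnq1ot1, the antisense RNA of an imprinted domain, was at 48.01, 32.3 and 46.5 CPM against 199, 406, 48.1, 134 and 194 CPM (2.20 ± 0.47; adjusted p = 0.0187). Snhg6, a snoRNA host, was higher by 1.55 ± 0.41 (adjusted p = 0.0398). CDM control 6 was the lowest CDM library for each of them, and for Snhg6 it lay below the in vivo controls. H19, the imprinted fetal RNA, was lower, at 3097, 1591 and 1892 CPM against 857, 1054, 1386, 1298 and 698 CPM (-1.06 ± 0.26; adjusted p = 0.028). By annotation, 11 of 135 lincRNA genes were called higher and 1 lower (median 0.38), beside 6.45% of all genes called in either direction. Predicted Gm models counted 6 higher and 1 lower of 142, among them Gm10076 (1.66 ± 0.34), Gm17750 (2.30 ± 0.52) and, lower, Gm12184 (-1.89 ± 0.45). Rik models counted 7 higher and 3 lower of 269, among them 2610507B11Rik (0.71 ± 0.16), B930036N10Rik (2.02 ± 0.50) and, lower, 1810021B22Rik (-1.33 ± 0.33). The higher Gm and Rik models were 20 and 32 without CDM control 6, and none without in vivo control 1, without in vivo control 3 or with sex as a factor.

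A pair of genes had no count in any in vivo control. Gm10800, a predicted gene model, was at 6.51, 73.2, 0, 4.63 and 43.1 CPM in the CDM controls, a mean at least 33.7-fold higher than the floor of 3 counts per in vivo library. That mean rests mostly on CDM controls 5 and 8, and the bound without either of them was not computed. Klk1b22, a kallikrein, was at 7.81, 5.68, 3.25, 0 and 7.05 CPM, at least 6.30-fold higher. Both had 1 CDM control without a count and were chosen after their values were seen.

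Of the 12 largest increases among genes whose groups did not overlap, those not yet described were low in level. Gbp3, an interferon-induced guanylate-binding protein, was at 1.45, 0.728 and 1.90 CPM in vivo against 7.81, 8.53, 5.79, 4.63 and 14.5 CPM. Schip1, a cytoskeletal adaptor, Grm7, a metabotropic glutamate receptor, and G630016G05Rik were called higher as well. All 4 had under 10 counts in each in vivo control and passed the filter on low counts through the CDM controls, so no size is given for them.

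Among the 12 largest decreases was Sprr2f, a small proline-rich protein of squamous epithelia, with 7.48, 6.07 and 6.80 CPM in the in vivo controls and 0, 0.71, 0.72, 0 and 0.78 CPM in the CDM controls. It was at 0 to 1.63 CPM in the controls of the other crosses, at 6.92 to 21.9 CPM in the in vivo DKO kidneys and at 4.04 to 7.79 CPM in the CDM DKO kidneys. Its CDM counts were 0, 1, 2, 0 and 2, so it passed the filter on low counts through the in vivo controls and no size is given for it. The CDM controls thus lay within the range of the other controls and the in vivo controls above it, which was not tested. Inmt, an indolethylamine methyltransferase, was at 32.1, 23.1 and 36.5 CPM in vivo and 8.24, 2.84, 9.40, 12.7 and 15.7 CPM in the CDM controls (-1.60 ± 0.32; adjusted p = 0.016), with 3.58 to 17.9 CPM in the other controls and 21.4 to 61.2 CPM in the DKO kidneys. Acsf2, an acyl-CoA synthetase, was at 22.7, 14.6 and 17.7 CPM against 1.30, 7.11, 6.15, 5.40 and 4.70 CPM (-1.92 ± 0.35; adjusted p = 0.0113). The mast cell proteases Cma1 and Cpa3 were called lower too, at 3.54 and 3.81 CPM or above in vivo and at 2.84 and 2.17 CPM or below in the CDM controls. Each CDM library had under 10 counts of them, so both passed the filter through the in vivo controls and no size is given. Cd74, the invariant chain of MHC class II, was at 8.93, 15.5 and 14.1 CPM against 3.90, 4.97, 4.34, 5.78 and 2.74 CPM (-1.58 ± 0.34; adjusted p = 0.0187). The remaining ones were Gm12184, Cdh13, a cadherin without a cytoplasmic tail (-1.79 ± 0.47), Arhgdig (-1.74 ± 0.35), Mpp3, Syn2, a synaptic vesicle protein (-1.58 ± 0.37), and Osbp2, an oxysterol-binding protein (-1.57 ± 0.44), all at 15.8 CPM or below in every library. Mpp3 was at 3.62 CPM or below in the CDM controls and passed the filter through the in vivo controls, so no size is given for it.

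**Figure D4:**
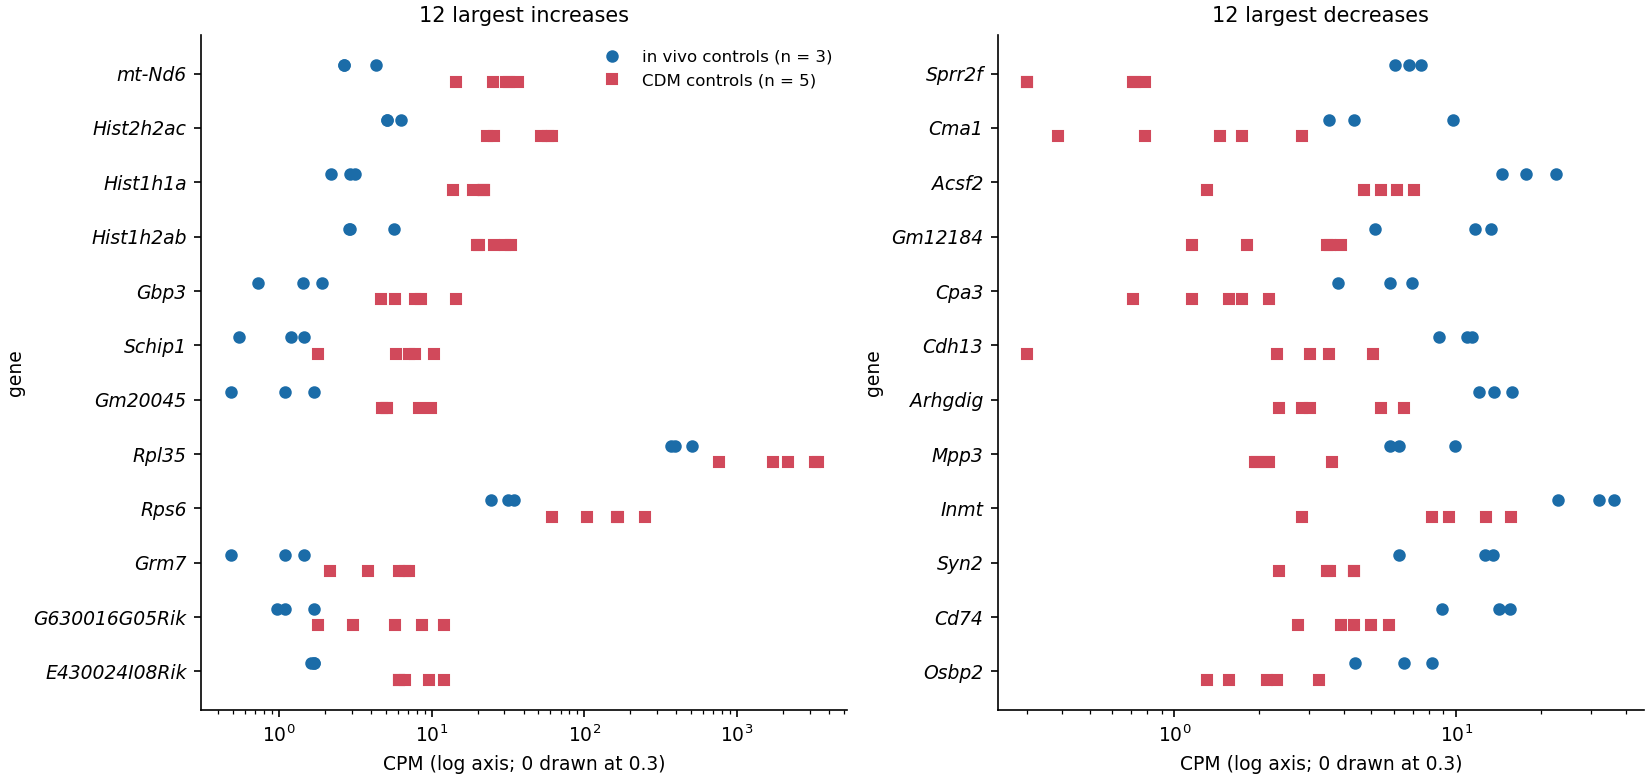
CPM (log axis; a level of 0 is drawn at 0.3) of the 12 genes with the largest increase (left) and the 12 with the largest decrease (right) in the CDM controls; blue circles are the 3 in vivo controls and red squares the 5 CDM controls. The groups do not overlap for any gene, since that was part of the choice, and Sprr2f falls from 6.07 CPM or above to 0.78 CPM or below.

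In each list of kidney cell types at most 4 genes were called, beside 3.17% of all genes called higher and 3.28% lower. In the nephron progenitor list (18 tested), Six2 was lower, at 44.6, 31.6 and 17.7 CPM in vivo and 9.98, 7.82, 22.8, 14.3 and 6.66 CPM in the CDM controls (-1.33 ± 0.35; adjusted p = 0.0393), and so was the coregulator Cited1, at 44.6, 45.4 and 23.7 CPM against 19.1, 10.7, 18.8, 6.94 and 12.5 CPM (-1.48 ± 0.30; adjusted p = 0.0165). Jag1, a Notch ligand of the differentiating nephron, was higher (0.84 ± 0.17; adjusted p = 0.0163), and the list's median was -0.17. For Six2 the groups overlapped, with CDM control 6 above in vivo control 3, and it was called in 1 of the 8 fits without 1 library. The number of progenitor genes called lower ranged from 0 to 5 over those fits and was 0 with sex as a factor. The mean level of Cited1 was 6.08 CPM in the 5 Flcn controls and 5.61 CPM in the 3 Flcn/Tfeb controls, and it ranged over 13.1 to 39.8 CPM in the DKO kidneys. Fewer cells of a type and less RNA per cell cannot be told apart in these bulk samples.

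In stroma, Ren1, renin of the juxtaglomerular cells, was at 306, 267 and 403 CPM in vivo and 170.0, 139, 190.5, 146 and 171 CPM in the CDM controls (-1.004 ± 0.17; adjusted p = 0.00941). Dlk1 was lower as well (-1.83 ± 0.45; adjusted p = 0.0305), but in vivo control 3, at 27.2 CPM, lay within the CDM range of 13.7 to 55.4 CPM. Pdgfra, a growth factor receptor of interstitial fibroblasts (0.70 ± 0.15; adjusted p = 0.0182), and Meis1, a homeobox factor of the stroma (0.80 ± 0.22; adjusted p = 0.0434), were higher, so the 13 tested stromal genes counted 2 each way, beside 3.17% of all genes called higher and 3.28% lower. Tagln (1.11 ± 0.22; adjusted p = 0.0142) and Myh11 (0.82 ± 0.21; adjusted p = 0.0343), contractile proteins of smooth muscle, were higher among 11 tested, beside the same 3.17%. The smooth muscle list as a whole did not rise: its median was -0.16, and 5 of the 11 had a positive difference.

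Along the nephron, single genes were called, beside 3.17% of all genes called higher and 3.28% lower. Cubn, the endocytic receptor of the proximal tubule, was higher (1.04 ± 0.26; adjusted p = 0.0314; 1 of 19), as were Nes in the podocyte list (0.92 ± 0.19; adjusted p = 0.0187; 1 of 11) and Atp6v1g3, a proton pump subunit of intercalated cells (0.83 ± 0.23; adjusted p = 0.0442; 1 of 8). The medians of these lists were 0.01, -0.00255 and -0.37. Of the 8 intercalated cell genes tested, Atp6v1g3 was the only 1 with a positive difference. In the thick ascending limb list (8 tested), the potassium channel gene Kcnj1 was higher, at 23.6, 32.3 and 28.02 CPM against 47.7, 61.1, 57.5, 60.9 and 70.5 CPM (1.08 ± 0.18; adjusted p = 0.00941), and the tight junction gene Cldn19 was lower (-0.73 ± 0.17; adjusted p = 0.0231). Klk1, tissue kallikrein of the distal nephron, was lower, at 69.96, 94.4 and 66.9 CPM against 22.6, 28.4, 32.5, 53.6 and 46.2 CPM (-1.07 ± 0.23; adjusted p = 0.0208). Of the principal cell genes (11 tested) and endothelial genes (14 tested) none was called; the closest were Scnn1b (-0.55 ± 0.16; adjusted p = 0.0559) and Gata3 (-0.50 ± 0.18), and Esam (-0.55 ± 0.16; adjusted p = 0.0516) and Tek (0.66 ± 0.23).

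Myeloid genes were lower in 3 of 13 tested, against 3.28% of all genes. Csf1r, the growth factor receptor of macrophages, was at 43.9, 33.5 and 60.7 CPM in vivo against 20.8, 28.4, 30.4, 27.8 and 23.1 CPM (-0.83 ± 0.21; adjusted p = 0.0355), and the complement genes C1qa (-0.85 ± 0.23) and C1qb (-0.81 ± 0.21) were lower as well. Without in vivo control 1 or 3 none of the 3 was called. Of 22 tested interferon response genes, 4 were higher and none lower (median 0.50), beside 3.17% of all genes called higher, and none was called without in vivo control 3. The 4 include Gbp3, which was tested through its CDM counts. Trim30a differed by 1.13 ± 0.28 (adjusted p = 0.0309), and Ifi27l2a by 2.09 ± 0.57 (adjusted p = 0.0412), the last with CDM control 6, at 6.51 CPM, inside the in vivo range. Adipocyte genes counted Lipe, hormone-sensitive lipase, lower (-1.14 ± 0.31) and Fabp4, a fatty acid carrier, higher (0.98 ± 0.27) of 8.

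Genes of lysosomes, glycolysis, fatty acid oxidation, and cholesterol and fatty acid synthesis that were called were all lower in the CDM controls. No gene of these 4 lists was called without in vivo control 1, without in vivo control 3 or with sex as a factor. Lysosomal genes counted 7 lower and none higher of 75, beside 3.28% of all genes called lower (median -0.11). They were Grn, progranulin, at 381, 248 and 366 CPM in vivo against 149, 185, 238, 185 and 186 CPM (-0.83 ± 0.18; adjusted p = 0.0205), the proton pump genes Atp6v0d1 (-0.71 ± 0.16), Atp6ap1 (-0.63 ± 0.15) and Atp6v1d (-0.52 ± 0.14), the lipase Lipa (-0.75 ± 0.18), Glb1, which encodes beta-galactosidase (-0.60 ± 0.15), and Ctsd, cathepsin D (-0.59 ± 0.15). The summed level of the lysosomal list was 11120 to 11960 CPM in vivo and 10120 to 12420 CPM in the CDM controls, and thus overlapped. After the GC and length correction 2 lysosomal, 1 glycolytic, 2 fatty acid oxidation and 3 cholesterol and fatty acid synthesis genes were called lower. Glycolytic enzymes counted 4 lower of 16: Aldoa at 453, 431 and 518 CPM against 236, 212, 335, 259 and 279 CPM (-0.83 ± 0.17; adjusted p = 0.0157), Pgam1 (-1.09 ± 0.25), Ldha (-0.61 ± 0.16) and Pkm (-0.80 ± 0.23). Fatty acid oxidation genes counted 5 lower of 31, with Acot2 (-0.71 ± 0.16), Cyp4a10 (-0.85 ± 0.21), Acads (-0.70 ± 0.18) and Plin2 (-0.72 ± 0.19). Cholesterol and fatty acid synthesis genes counted 3 lower of 31: Fdps (-1.15 ± 0.23), Acat2 (-0.77 ± 0.16) and Nsdhl (-0.84 ± 0.19). Gluconeogenic genes were not called (Pcx, 0.34 ± 0.18; G6pc3, -0.37 ± 0.22).

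Transcripts that the study lists as higher in Flcn knockout kidneys were mostly lower in the CDM controls where called: 10 lower and 1 higher of 116 tested (median -0.23, against 0.00 over all genes), beside 3.28% of all genes called lower and 3.17% higher. The list was chosen by the study, so its direction is not independent evidence. Sprr2f, tested through its in vivo counts, was among the lower ones, as were Inmt, Arhgdig, Grn and Ctsd. Another was Fstl3, a follistatin-like secreted protein, at 62.5, 50.5 and 47.9 CPM against 22.1, 35.5, 26.03, 28.5 and 24.7 CPM (-0.99 ± 0.19; adjusted p = 0.0119). The others were Mfsd4a (-1.06 ± 0.24), Cenpx (-0.71 ± 0.18), the keratin gene Krt7 (-0.68 ± 0.17) and Gga2 (-0.60 ± 0.17), and the 1 higher gene was Atp6v1g3. The count of lower genes ranged from 1 to 19 over the fits without 1 library and was 0 with sex as a factor.

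Response genes counted few calls, and their counts stand beside 3.17% of all genes called higher and 3.28% called lower. Among immediate early genes (21 tested) Jund (-0.97 ± 0.23; adjusted p = 0.0245), Ier3 (-0.83 ± 0.23) and Rhob (-0.50 ± 0.14) were lower. Ddit4, an inhibitor of mTORC1 in the hypoxia and glucocorticoid lists, was at 48.5, 44.7 and 47.6 CPM in vivo and 16.9, 19.9, 35.4, 21.6 and 20.4 CPM in the CDM controls (-1.04 ± 0.22; adjusted p = 0.0178). Vegfa, the vascular growth factor, was higher (0.77 ± 0.19; adjusted p = 0.0326) and Selenbp1 lower (-0.72 ± 0.17) in the hypoxia list, and Cdkn1a, the p53-induced cell cycle inhibitor, was lower (-0.81 ± 0.20; adjusted p = 0.0314). Usp2 (-0.67 ± 0.16) and Cry1 (-0.91 ± 0.25) of the clock list, Pycr1 (-1.20 ± 0.28) and Atf5 (-1.47 ± 0.40) of the ATF4 list (neither called without in vivo control 1 or 3 or with sex as a factor), Gstm2 (-0.69 ± 0.18) of the NRF2 list and Krt19 (-0.79 ± 0.22) of the injury list were lower, and the chaperonin gene Hspe1 was higher (1.30 ± 0.32; adjusted p = 0.0314). Cell cycle genes counted 3 higher of 40, beside the 3.17% of all genes: Mki67 at 94.1, 78.4 and 97.7 CPM against 145, 155, 193, 195 and 143 CPM (0.87 ± 0.16; adjusted p = 0.0113), Kif20a (0.98 ± 0.24) and Gmnn (1.25 ± 0.36). Over the fits without 1 library, 0 to 7 cell cycle genes were called higher and 0 to 6 lower, and 0 were called higher with sex as a factor. Matrix genes counted 4 lower of 32, beside 3.28% of all genes, with Eln, elastin (-1.31 ± 0.28; adjusted p = 0.0187), Lox, which crosslinks it (-1.29 ± 0.32; adjusted p = 0.0307), Col6a1 (-0.67 ± 0.18) and Sparc (-0.65 ± 0.18). Eln was at 365 and 362 CPM in in vivo controls 1 and 2 but at 129 CPM in in vivo control 3, inside the CDM range of 78.1 to 152 CPM. None of the 4 matrix genes was called without in vivo control 1.

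**Figure D5:**
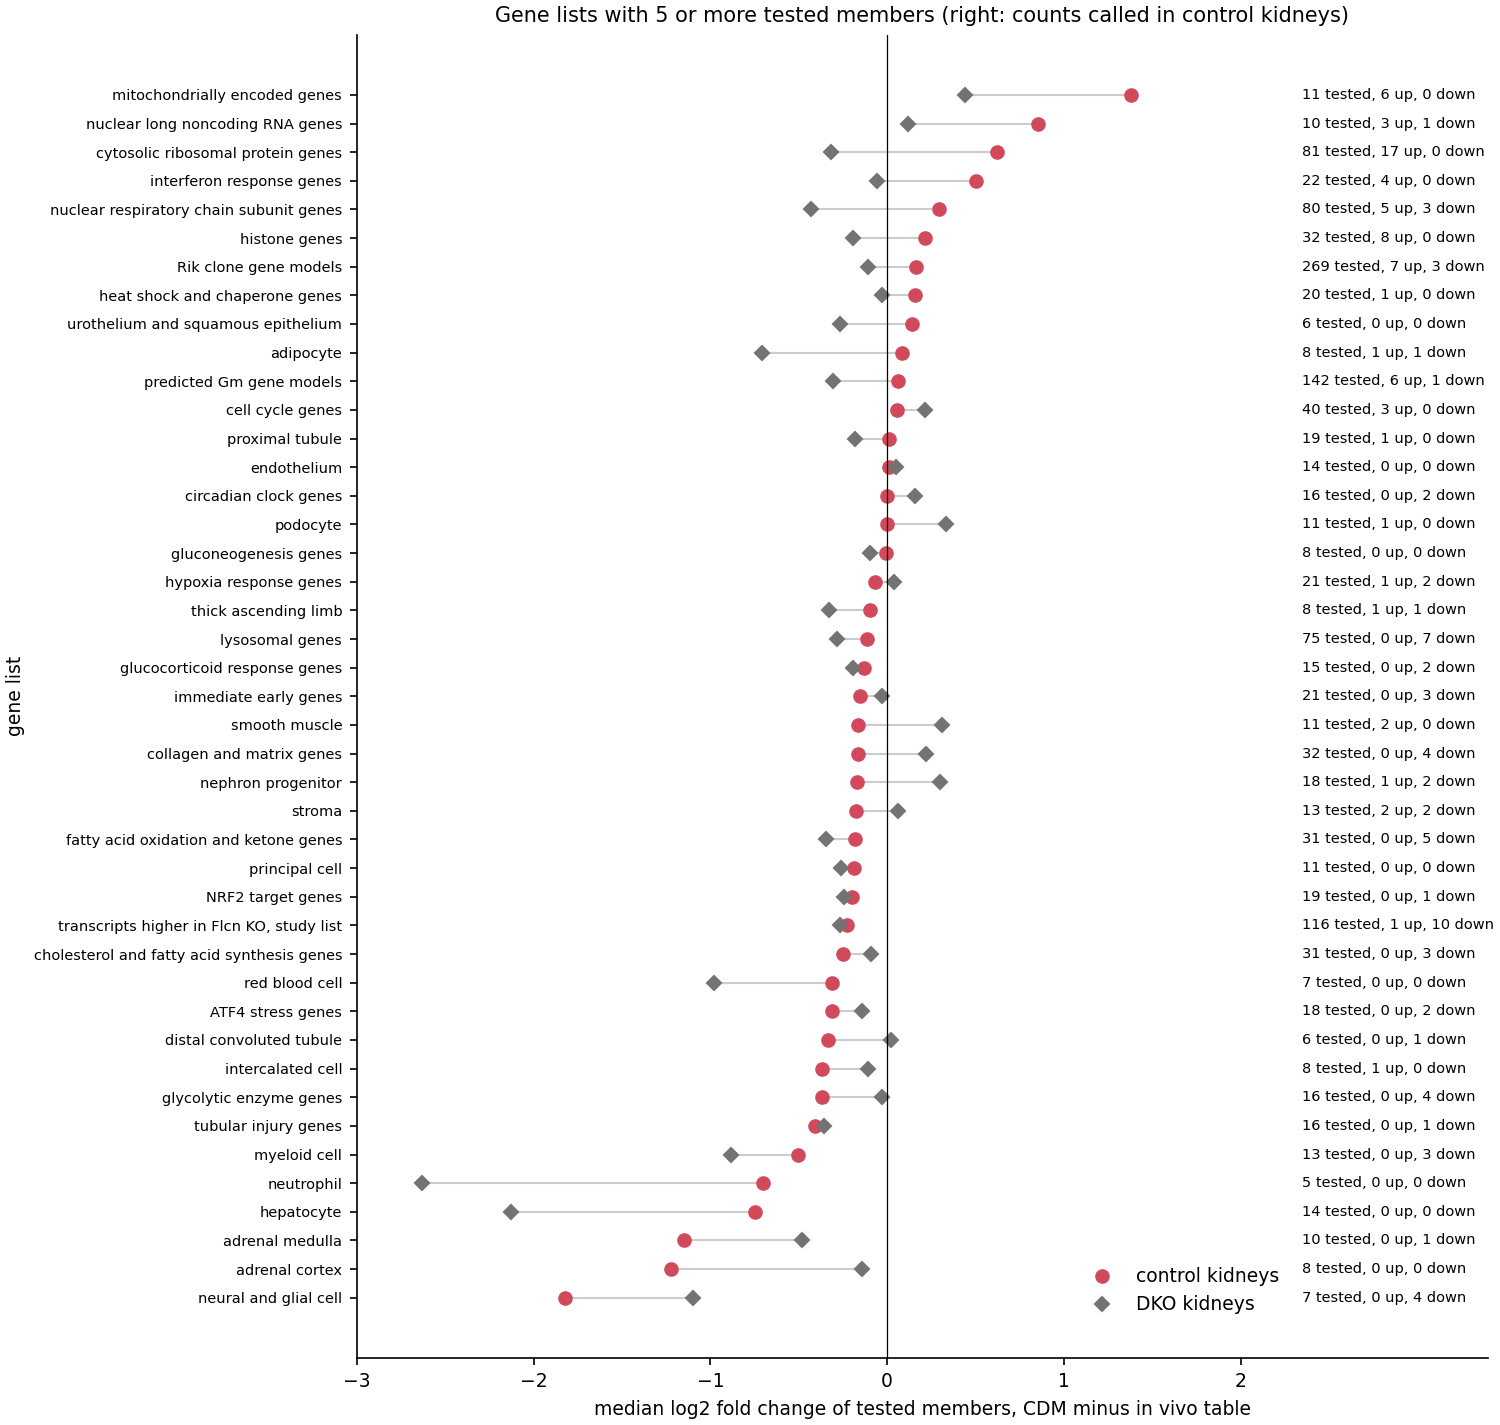
Median log2 difference (horizontal axis, CDM minus in vivo) of the tested members of each gene list with 5 or more tested members; red circles are control kidneys and grey diamonds DKO kidneys, and the text at the right counts members called in the controls. Mitochondrially encoded genes lie at 1.38 and 0.44, and ribosomal protein genes at 0.62 in controls and -0.32 in DKO kidneys.

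The DKO kidneys of the same 2 tables give a separate view of the split, with no library in common. There 3922 of 12707 genes (30.9%) were called, 1989 (15.7%) higher and 1933 (15.2%) lower in the CDM table. Of the 388 genes higher in the CDM controls and tested in both, 228 (58.8%) were also called higher in the CDM DKO kidneys and 12 were called lower; of the 407 lower ones, 225 (55.3%) were called lower and none higher. As a share of the 3871 DKO calls tested in both, the 453 shared calls were 11.7%. Over all 12274 genes tested in both, the log2 differences had a Pearson correlation of 0.39 across genes, which are not independent replicates. Hist1h2ab (2.52), Hist2h2ac (2.10), Hist1h1e (1.13), Hist1h4d (1.51), mt-Nd6 (1.61), Malat1 (1.63), Cdkn1b (1.14), Morf4l1 (1.12), Ren1 (-0.77), Cd74 (-1.51) and Inmt (-1.20) were called in the DKO kidneys in the direction of the controls. In the controls, Hist1h2ab and mt-Nd6 had been tested through their CDM counts. Transcript length parted the DKO kidneys more than GC did: 60 genes were called higher and 966 lower among the shortest, and 1086 higher and 51 lower among the longest.

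Ribosomal protein and respiratory chain genes called in the DKO kidneys were mostly lower in the CDM table. In DKO kidneys, where 15.7% of all genes were called higher and 15.2% lower, 6 ribosomal protein genes were called higher and 41 lower of 81 (median -0.32), and none of the nuclear respiratory chain genes was higher and 46 of 80 were lower (median -0.43). Of the 17 ribosomal protein genes called higher in the controls, Rps6 (0.83), Rpl35 (0.61), Rpl24 (0.53) and Rps23 (0.69) were also called higher in the DKO kidneys, and Rps27l was called lower (-0.69). The difference between the 2 genotypes in their table difference was called for 112 of 13370 genes (0.838%), 102 positive (0.763%) and 10 negative (0.0748%), of which 13 positive ones were ribosomal protein genes and 8 respiratory chain genes. The genes with the smallest p were Tcf21, a podocyte and stromal transcription factor (interaction 1.29 ± 0.22), Rps27l (2.09 ± 0.39), Mycbp (1.54 ± 0.29), Plac8 (2.39 ± 0.45), Gpx8 (1.35 ± 0.26), Sobp (-1.69 ± 0.33), Tma7 (1.54 ± 0.31) and Pigp (2.004 ± 0.40), each with an adjusted p of 0.0474. Tcf21 was at 77.2, 72.8 and 83.0 CPM in the in vivo controls and 115, 109, 71.2, 104 and 110 CPM in the CDM controls (0.38 ± 0.17), and its log2 difference in the DKO kidneys was -0.91. No interaction was called when Xist was a covariate, after the GC and length correction, or without in vivo control 1 or 3 or CDM control 4, 5, 7 or 8, while 2787 genes had an unadjusted p below 0.05 in the fit as reported; without CDM control 6 the count was 953 positive and 653 negative.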

How the data were processed

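Kidneys were profiled by QuantSeq 3′ mRNA-Seq. The authors trimmed the reads (the methods name bbduk; the submitters' processing notes name Trim Galore), aligned them to mm10 with STAR and deposited raw counts per gene made with HTSeq-count; the STAR version for the mouse reads is not given in the sources used here. Both tables list 31053 genes, of which 99.86% matched GENCODE M21, and 1 column of values outside the labelled samples was not used. Reads with several alignments stayed uncounted (35.0 to 42.5% in the CDM controls).

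The 8 controls were fitted with edgeR 4.0.16 in R 4.3.3 (filterByExpr, TMM, quasi-likelihood F test, two-sided, Benjamini-Hochberg). The same test was run on the 10 DKO libraries and, as an interaction, on all 18. Levels used 1 TMM scaling over 26 libraries. DESeq2 1.42.0 and the settings given below were alternatives. Totals ran from 1719367 to 3873439 counts, which sets the counting error. Scripts were tested on simulated data. Replicate pairs differed by a chi-square per degree of freedom of 5.11 to 28.9, so none was a repeated library. Named genes were the genotype and sex genes, the 12 largest called changes each way without overlap and with a mean of at least 10 counts, up to 4 called genes per list (up to 2 with the smallest p where none was called), and the 8 genes with the smallest interaction p. Further called members of some lists, the lysosomal and study lists among them, are given beyond that rule, and others are stated as chosen later. A gene that the rule names is not reported here. The members and the 48 lists were chosen with earlier results of these data known. Lists were described by counts and medians, with no test.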

Additional observations from a re-analysis of the deposited data

Results flagged for a closer look

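Of 180 values examined within the 5 CDM controls, 21 had 1 library far from the other 4 by Dixon's criterion. Chance gives about 1 in 20 for values not picked for their spread, but Cyp21a1, Star, Th and Dbh were added after the data were read, so the count is a description. CDM control 6 held 12 of them. Its adrenal genes were Cyp21a1 at 57.1, Star at 36.5, Cyp11a1 at 23.5, Dbh at 6.87 and Th at 6.51 CPM, against 1.57 CPM or below in the other 4 libraries. It was also high in Cdkn1a at 196.7, Ddit4 at 35.4, Pkm at 299.7, Cyp4a10 at 97.3, Pygm at 43.0 and Mpp3 at 3.62 CPM, and low in Tcf21 at 71.2 CPM.

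CDM control 8 was the only CDM library with the Y-linked genes Ddx3y at 81.1, Kdm5d at 27.0, Uty at 27.8 and Eif2s3y at 15.3 CPM. CDM control 5 had the lowest total, 1719367 counts, with Ldha at 117.9 and Tsix at 1.42 CPM. CDM control 7 was high in Ngp, a neutrophil granule protein, at 20.4 CPM and in the immunoglobulin gene Igkc at 6.17 CPM.

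The interaction test in edgeR called 112 genes whose table difference differed between control and DKO kidneys. Among the 8 with the smallest p, the interaction (log2) was 2.39 for Plac8, 2.09 for Rps27l, 2.00 for Pigp and 1.54 for Mycbp. It was 1.54 for Tma7, 1.35 for Gpx8, 1.29 for Tcf21 and -1.69 for Sobp. For Plac8, Rps27l, Mycbp and Pigp, CDM control 6 lay within the in vivo range while the other 4 CDM controls lay above it. No interaction was called when in vivo control 1 or 3 or CDM control 4, 5, 7 or 8 was left out.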

How the results depend on the processing

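Against 802 genes called (394 higher, 408 lower), DESeq2 called 1212 (655 higher), a fit over 18 libraries 1553 (796 and 757), and an adjusted p under 0.01 left 37 (20 and 17). Library totals alone gave 157 higher and 891 lower, Xist as a covariate 19 (14 and 5), and, chosen after seeing the data, sex as a factor 11 (10 and 1) and the GC and length correction 409 (209 and 200). Leaving out 1 library gave 54 to 1949 calls, 26 to 1013 higher and 28 to 936 lower, lowest without in vivo control 1 and highest without CDM control 6. The causes were not tested. The interaction count of 112 became 799 with DESeq2, 0 with Xist, 0 after the correction, and 0 to 1606 without 1 control library. The DKO count stayed within 1.5 times in all 15 alternatives. The difference in the share of Rik gene models ran from -0.06625 to -0.03465 percentage points without 1 library.

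Of 110 named genes called as reported, Gap43 and Tubb3 turned under an alternative; no value had an adjusted p below 0.05 in a fit that turned it. Flcn became -0.20 on library totals, -0.00521 without a filter, -0.10 with Xist and -0.10 with sex, and ran from -0.18 to 0.25 without 1 library; Cdh16 became -0.16 and Upk1a -0.0316 on totals, and Upk1a ran from -0.004915 to 0.38 without 1 library. Xist became -0.0820 with itself as covariate, and Kdm5d 0.53 and Uty 0.45 with sex. Without the 3 controls with adrenal RNA, which leaves 1 in vivo library assumed to vary like the others, Cdh16 became -0.0643, Kdm5c -0.13, G6pc3 0.23, Ngp 0.0395, Camp 0.81, Igkc 0.22, Trf 1.48, Serpina1a 0.69, Gap43 0.26, Tubb3 1.87 and Alb 2.41. Leaving out 1 library, the lowest value came without CDM control 7 for Camp (-1.74), Trf (-2.32), Serpina1a (-1.46) and Alb (-2.31) and without in vivo control 2 for Cd79b (-0.49), and the highest without in vivo control 1 for all 5 (0.31, 1.02, 0.53, 1.67 and 0.0511). No paired analysis was possible because the groups compared share fewer than 2 replicate numbers. With 3 against 5 libraries, exact tests cannot go below p = 0.0179.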
